A study of Mus musculus with 3 samples.

Results

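The 40 mRNAs described here encode enzymes and readers of chromatin that the literature links to endotoxin tolerance, the muted second answer of macrophages to bacterial lipopolysaccharide. They are a named list of genes, named for what their proteins do, and 40 of 40 symbols matched exactly 1 of the 55536 Ensembl genes in the deposited tables. All 3 libraries belong to 1 condition: bone marrow-derived macrophages of C57BL/6J mice, phagocytes grown from marrow cells, which spent 12 h in 100 ng/ml Lipid A, 12 h without it and a final 50 min in 100 ng/ml Lipid A again. Lipid A is the part of lipopolysaccharide that Toll-like receptor 4 recognises. Total RNA of the cytosolic fraction was depleted of ribosomal RNA and sequenced from 1 µg of input as biological replicates 1, 2 and 3, the order in which values are given throughout. The labels give neither the sex nor the age of the animals. With no untreated, singly stimulated or nuclear library analysed here, the data give levels of these mRNAs in restimulated cells and their spread, not their induction or loss.

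Chromatin modifiers write, erase or read chemical marks on histones and DNA. Methyl groups on lysine 27 and lysine 9 of histone H3 mark silent genes, acetyl groups on histones mark active ones, and remodelling enzymes use ATP to slide or evict nucleosomes. In macrophages that have met lipopolysaccharide once, inflammatory genes that become tolerant are known to lose activating marks at their promoters while other genes stay open to a second stimulus, and several enzymes of the list have been tied to that difference.

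Of the 40 members, 38 reached a TPM (a relative abundance that accounts for transcript length and sums to the same total in each library) of at least 1 in every library, against 17.2% of all Ensembl genes. The 2 others were the class IIa deacetylase Hdac9 and the class IV deacetylase Hdac11. The median member had a TPM of 10.8, 8.07 and 10.7, or 9.88 ± 1.57 (SD, n = 3), close to the 9.12 ± 1.61 of the 9059 expressed protein-coding genes. Of 39 neighbouring pairs of members by mean TPM, 15 kept their order in every library. The ranges over the libraries did not overlap for 3 neighbouring pairs by deposited TPM, namely Ncor1 over Sirt2, Smarca4 over Hdac1 and Hdac9 over Hdac11, and for 9 by TPM rescaled to protein-coding genes. The rescaled values added Brd2 over Dnmt3a, Chd4 over Ehmt2, Ehmt2 over Ep300, Kdm4a over Ezh1, Suz12 over Kdm5a and Hdac4 over Kdm5b. The highest members were Brd2, Dnmt3a, Ncor1, Sirt2, Chd4 and Ehmt2, and the lowest were Hdac11, Hdac9, Hdac7 and Kdm5b. In the plot of member levels, 20 members lie at a mean TPM of 10 or more.

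The libraries held 47972062 to 54409436 expected counts over Ensembl genes, so a count of 0 allows up to 0.0551 to 0.0625 CPM (counts of a gene over the library's total, scaled as TPM is; 3 counts of the total, counting error only). Short RNAs of the 7S, RNase P and RNase MRP kind took 64.5%, 72.6% and 61.7% of TPM, and 35 of the 40 members had their lowest TPM in replicate 2, where that share was largest. This was not particular to the members: the median TPM of the expressed protein-coding genes was 9.78, 7.29 and 10.3, also lowest in replicate 2. These are bulk libraries, in which fewer cells of a type and less RNA per cell cannot be told apart. Differences between libraries are given in CPM with TMM library sizes (a scaling by the typical gene), and TPM is used to compare genes within a library. All 8 macrophage markers were expressed, with a summed TPM of 6115 to 8044. The summed TPM of 4 T and NK cell markers, 3 B cell markers and 4 fibroblast markers stayed at or below 0.28, 0.08 and 0.07. The neutrophil list reached 50.8, mostly through Csf3r, and the endothelial list 13.7, mostly through Kdr. Of the 6 neutrophil markers 3 were expressed, namely Csf3r, S100a8 and S100a9. S100a8 had a TPM of 3.79, 4.16 and 3.44 and S100a9 had 5.85, 6.18 and 4.19, while Ly6g had 0 counts. Malat1 and Neat1, long RNAs retained in the nucleus, had 6066, 3077 and 1408 CPM and 647, 247 and 126 CPM, highest in replicate 1 and lowest in replicate 3.

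**Figure D1:**
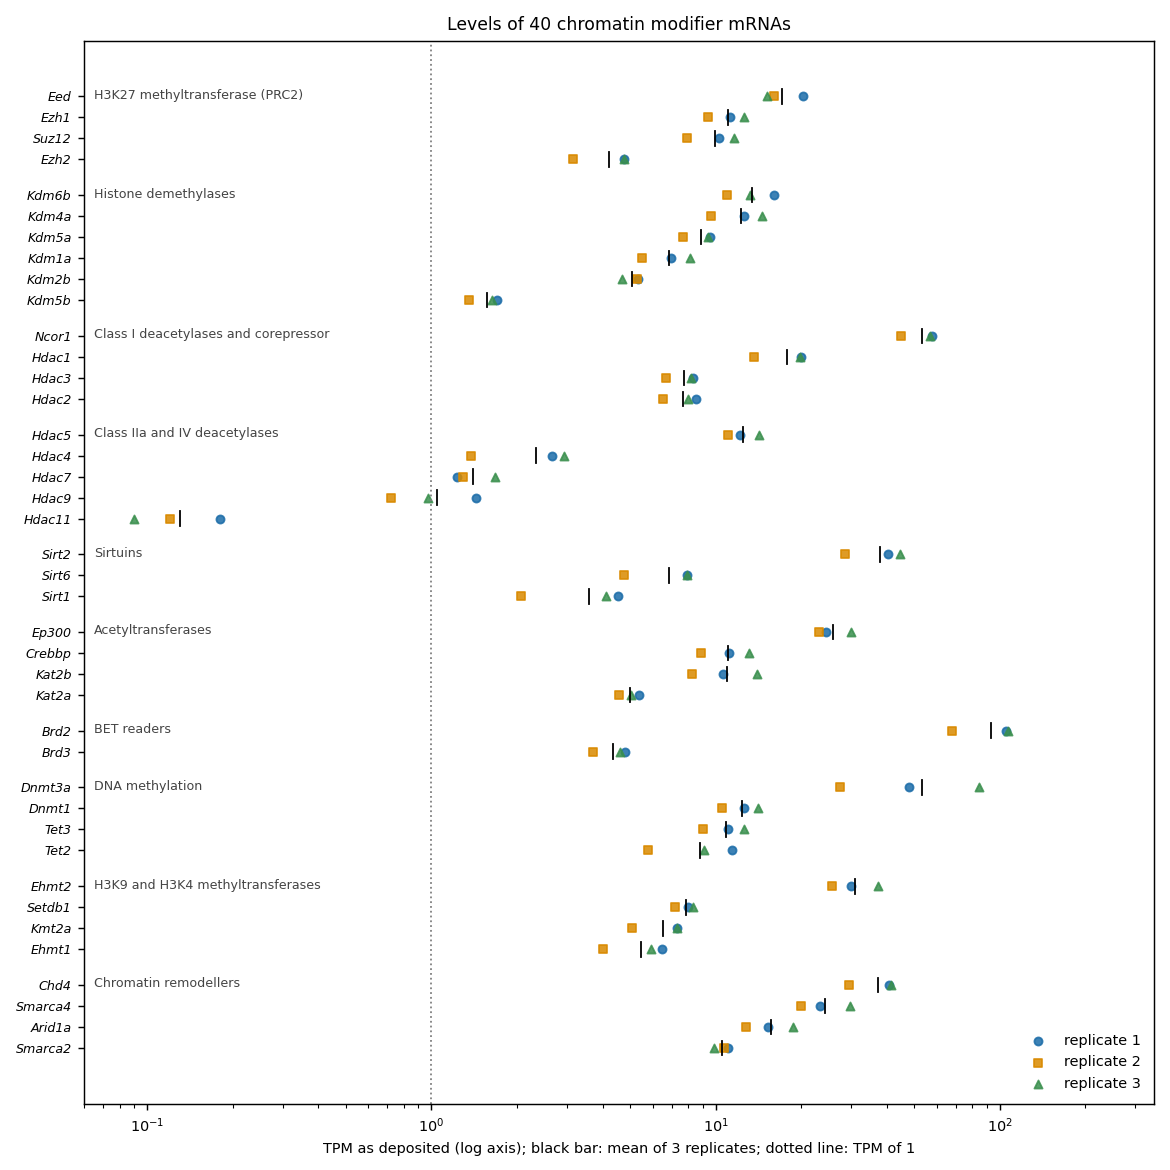
TPM as deposited (log axis) of the 40 members in replicates 1 (circles), 2 (squares) and 3 (triangles), grouped by role and ordered within each group by mean (black bars). Brd2 lies farthest right with a mean of 93.5, Hdac11 farthest left with 0.13, and replicate 2 is the lowest point for 35 members. The median TPM of all expressed protein-coding genes was also lowest in replicate 2, at 7.29.

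Polycomb repressive complex 2 (PRC2) puts the silencing methyl groups on lysine 27 of histone H3, and its 4 listed parts were all expressed. Ezh1 and Ezh2 are its alternative catalytic subunits. Ezh1 (chr11:101191115-101226463, minus strand) had a TPM of 11.2, 9.4 and 12.6. Ezh2 (chr6:47530139-47595341, minus strand), the more active enzyme that dividing cells favour, had 4.74, 3.14 and 4.76. Ezh2 was the lower of the pair in every library, with a difference in log2(TPM + 1) of -1.22 ± 0.12 (SD, n = 3). The core subunits ran above Ezh2: Eed, which binds the methylated lysine, had 20.3, 16.1 and 15.2, and Suz12, which holds the complex together, had 10.2, 7.92 and 11.6. Part of the TPM of Eed stood on transcripts that keep an intron, which are described with the transcripts. Of 7 partner genes of PRC2, 6 reached the TPM limit. The histone chaperone Rbbp7 was highest at 21.8 ± 1.01 TPM and the accessory factor Phf19, below the limit, lowest at 0.867 ± 0.0635 TPM (SD, n = 3).

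Kdm6b (chr11:69398508-69413675, minus strand), also called Jmjd3, removes methyl groups from lysine 27 and is known as a lipopolysaccharide-inducible gene of macrophages. Among the 6 listed demethylases it had the highest mean, though Kdm4a exceeded it in replicate 3, with a TPM of 16.1, 10.9 and 13.2. Its paralog Kdm6a, also called Utx, had 19.2, 13.98 and 25.4. By deposited TPM, Kdm6b lay below Kdm6a in every library (Kdm6b minus Kdm6a -0.48 ± 0.35, log2, SD, n = 3). When counts were divided by the longest coding transcript of each gene, the difference was 0.21 ± 0.29, with a sign that differed between libraries. Against Ezh2, the opposing writer, Kdm6b was higher in every library by 1.47 ± 0.15 (log2, SD, n = 3).

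The other demethylases act on other lysines. Kdm4a, an eraser of lysine 9 and lysine 36 methylation, had a TPM of 12.6, 9.62 and 14.6. Kdm5a, which takes methyl groups off lysine 4, the mark of active promoters, had 9.54, 7.67 and 9.41. Its paralog Kdm5b had 1.7, 1.36 and 1.63, and was the lower of the pair in every library (Kdm5a minus Kdm5b 1.94 ± 0.06, log2, SD, n = 3). Kdm1a, or Lsd1, the demethylase of the CoREST complex, had 6.95, 5.49 and 8.15, and Kdm2b, which recruits a variant Polycomb complex to CpG islands, had 5.33, 5.27 and 4.67. Of 10 partner demethylases 9 were expressed. Kdm6a was the highest of them and the testis gene Kdm4d the lowest, with TPM listed at or near 0 (mean 0.00667).

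Deacetylases remove acetyl groups, and the class I enzymes work inside corepressor complexes. Ncor1 (chr11:62316426-62458541, minus strand), the scaffold that carries Hdac3, was the highest of these at a TPM of 57.5, 44.9 and 56.9. The TPM of Ncor1 was spread over 25 annotated transcripts, and its leading one, Ncor1-204, held 15.7%, 13.4% and 13.5% of it. By counts per length of the longest coding transcript, Ncor1 ranked 7 among the members instead of 3.

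Hdac1 had a TPM of 19.9, 13.7 and 19.8, against 8.5, 6.51 and 7.98 for Hdac2, which shares its complexes. Hdac3, the enzyme of the Ncor1 complex, had 8.32, 6.7 and 8.21. Hdac1 exceeded Hdac2 in every library by 1.10 ± 0.13, or by 1.74 ± 0.14 with counts per length of the longest coding transcript, and Hdac3 minus Hdac1 was -1.09 ± 0.14, below 0 in every library (log2, SD, n = 3). The 8 partner genes of these complexes were all expressed, and the lowest was the class I deacetylase Hdac8 with 1.98 ± 0.314 TPM (SD, n = 3).

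Class IIa deacetylases shuttle between nucleus and cytoplasm and bind the transcription factors of the Mef2 family. Only Hdac5 was of middling level, with a TPM of 12.2, 11.1 and 14.2. Hdac4 had 2.66, 1.38 and 2.93, Hdac7 had 1.23, 1.29 and 1.67 and Hdac9 had 1.44, 0.72 and 0.97. Hdac5 exceeded Hdac4 in every library by 2.05 ± 0.26 (log2, SD, n = 3), while Hdac7 and Hdac9 changed places. Hdac7 minus Hdac9 was -0.13 in replicate 1, against 0.41 and 0.44 in the others. Hdac11, the class IV enzyme known in macrophages as a repressor of Il10, had a TPM of 0.18, 0.12 and 0.09, from 15 to 31 counts per library. It was the only member with fewer than 100 counts. The class IIa binding partner Mef2a had 19.8 ± 4.55 TPM, the highest of the 5 partner genes, and Hdac10 had 1.28 ± 0.261, the lowest.

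Sirtuins are deacetylases that use the cofactor NAD. Sirt2 (chr7:28766735-28788661, plus strand), a mostly cytoplasmic enzyme, had a TPM of 40.3, 28.4 and 44.7. Sirt1, a nuclear sirtuin that can deacetylate NF-κB, had 4.55, 2.06 and 4.1, and Sirt6, which works on histone H3 at NF-κB targets, had 7.91, 4.77 and 7.92. Sirt2 exceeded Sirt1 in every library by 3.11 ± 0.19 (log2, SD, n = 3), a ratio of mean TPM of 10.6. All 4 partner sirtuins passed the TPM limit, with Sirt7 highest at 20.03 ± 3.603 and Sirt5 lowest at 1.303 ± 0.199 TPM.

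Acetyltransferases add the groups that deacetylases remove. Ep300 (chr15:81585351-81652077, plus strand), or p300, had a TPM of 24.4, 23.04 and 29.9, and its near twin Crebbp, or CBP, 11.2, 8.85 and 13.1. Ep300 was the higher in every library by 1.16 ± 0.11 (log2, SD, n = 3). By counts per length of the longest coding transcript, scaled to protein-coding genes, the ratio was smaller, with 71.2 ± 2.53 for Ep300 and 40.7 ± 1.29 for Crebbp. Kat2a, or Gcn5, had 5.36, 4.58 and 5.02, and its paralog Kat2b, or Pcaf, 10.6, 8.23 and 13.9. Here Kat2a was the lower in every library (Kat2a minus Kat2b -0.97 ± 0.30). All 5 partner acetyltransferases were expressed, between 14.5 ± 2.13 for Kat7 and 2.02 ± 0.486 TPM for Kat6b.

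BET proteins read acetylated histones and bring in the machinery of transcription elongation. Brd2 (chr17:34112023-34122634, minus strand) was the highest member of the list with a TPM of 105, 67.9 and 107. Brd3 had 4.78, 3.7 and 4.6. The gap of 4.12 ± 0.21 (log2, SD, n = 3) was the widest of the 19 pairs, a ratio of mean TPM of 21.4. Brdt, the testis BET gene, had 0.3 ± 0.0557 TPM. Exons of Brd2 share 360 bases with H2-DMa on the other strand, 4.60% of its exonic bases, and without a stated strand setting the reads of such genes cannot be told apart. Exons of 8 members overlap an expressed gene on the other strand. The overlap was largest for Kdm2b, which shares 5.77% of its exonic bases with Rnf34. For Kdm5a, Ncor1, Hdac7, Sirt2, Dnmt3a and Setdb1 it was at most 1.77%.

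DNA methyltransferases put methyl groups on cytosine, and Tet enzymes oxidise them. Dnmt3a (chr12:3806007-3914443, plus strand), a de novo methyltransferase, had a TPM of 48.1, 27.3 and 84.7, the second highest mean and the widest SD of the list. Dnmt1, which copies methylation after replication, had 12.6, 10.5 and 14.1. Dnmt1 was the lower of the pair in every library (Dnmt1 minus Dnmt3a -1.89 ± 0.61, log2, SD, n = 3), with the gap smallest in replicate 2 and largest in replicate 3. By counts per length of the longest coding transcript the difference was -0.95 ± 0.40, and Dnmt3a ranked 6 among the members instead of 2. Tet2, known to shut down Il6 late in inflammation through Hdac2, had 11.4, 5.8 and 9.12, and Tet3 11.1, 9.03 and 12.6. Tet2 was slightly above Tet3 in replicate 1 and below it in the others (Tet2 minus Tet3 -0.31 ± 0.32, log2, SD, n = 3). Of the 5 partner genes 2 were expressed. The lowest was Tet1, the third Tet enzyme, at 0.0833 ± 0.0404 TPM (SD, n = 3).

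Among the methyltransferases of lysine 9 and lysine 4, Ehmt2, or G9a, had a TPM of 29.9, 25.6 and 37.2, and its partner Ehmt1, or GLP, 6.5, 4.0 and 5.92. The proteins act as a heterodimer, and the Ehmt2 mRNA was the higher in every library by 2.31 ± 0.23 (log2, SD, n = 3). Setdb1, which trimethylates lysine 9 at endogenous retroviruses, had 8.01, 7.18 and 8.33. Kmt2a, or Mll1, a writer of lysine 4 methylation, had 7.29, 5.06 and 7.31. Of 8 partner genes 7 were expressed. The lysine 4 methyltransferase Kmt2d was highest at 18.7 ± 2.44 TPM, and the lysine 9 methyltransferase Suv39h2, below the limit, lowest at 0.373 ± 0.2702 TPM.

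The 4 listed remodeller subunits had a median of 19.9 TPM over their means, against 10.2 over all members. Chd4 (chr6:125095981-125130591, plus strand), or Mi-2β, the motor of the NuRD complex, had a TPM of 40.7, 29.5 and 41.3, against 13.2, 9.54 and 15.2 for its paralog Chd3. Smarca4, or Brg1, the usual motor of the SWI/SNF complex and one that inducible inflammatory genes need, had 23.2, 19.98 and 29.7, against 11.03, 10.7 and 9.89 for the alternative motor Smarca2, or Brm. Arid1a, the DNA-binding subunit of SWI/SNF, had 15.3, 12.8 and 18.8. Smarca4 exceeded Smarca2 in every library by 1.12 ± 0.34, and Chd4 exceeded Chd3 by 1.49 ± 0.09 (log2, SD, n = 3). By counts per length of the longest coding transcript these differences were 2.17 ± 0.26 and 2.46 ± 0.02. All 12 partner subunits were expressed, between Gatad2a at 27.9 ± 6.64 and Arid2 at 4.31 ± 0.916 TPM. Over all families, 59 of 66 partner genes were expressed, and the median of their means was 9.902 TPM.

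Across the 19 differences between related genes, 17 had the same sign in every library, 10 with the first-named gene higher and 7 with it lower. With 3 libraries an exact two-sided sign-flip permutation test cannot give a p under 0.25, and each of the 17 had that p by the exact test, or 0.279 after Benjamini-Hochberg adjustment over 19 pairs. No pair could thus pass a threshold of 0.05. The differences that changed sign were Hdac7 minus Hdac9 and Tet2 minus Tet3.

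**Figure D2:**
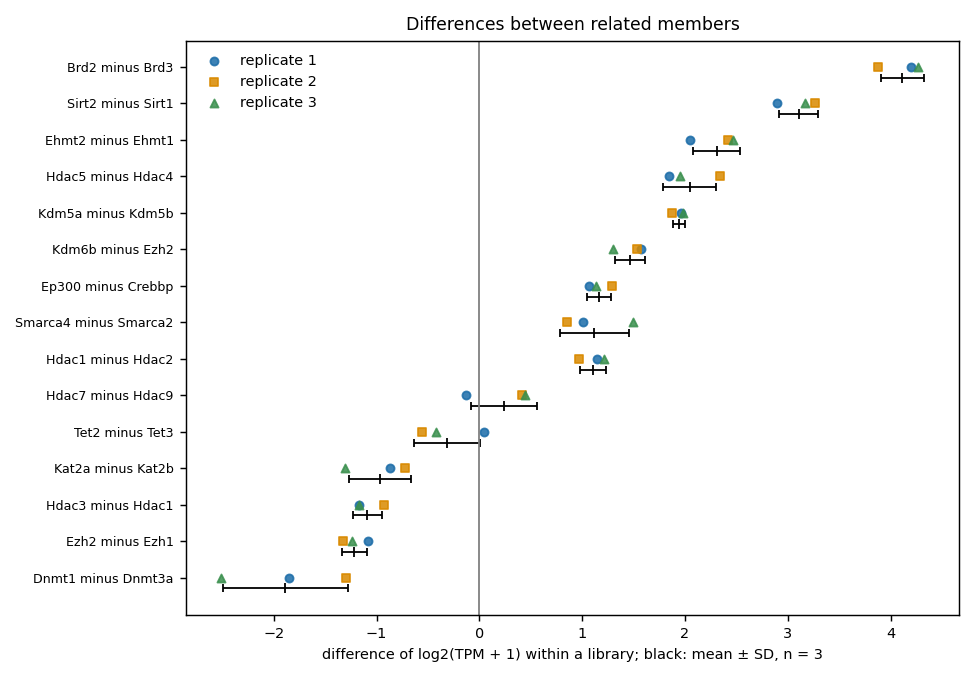
Difference of log2(TPM + 1) between 2 related members within each library, for the 15 pairs in which both genes are members (replicate 1 circles, 2 squares, 3 triangles; black marks give the mean ± SD, n = 3), first-named minus second-named gene. Brd2 minus Brd3 is highest at 4.12, Dnmt1 minus Dnmt3a is lowest at -1.89 with its points farthest apart, and the points of Hdac7 minus Hdac9 and of Tet2 minus Tet3 lie on both sides of 0.

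Between the libraries most members differed by little, though by more than counting error. All 40 members had a mean count of at least 10, and 33 of them varied beyond counting error (Poisson heterogeneity chi-square on rounded expected counts, Benjamini-Hochberg adjusted p under 0.05 over all 13827 tested genes). The same call fell on 70.0% of all tested genes, and on 84.2% of the 4424 genes whose counts lay between the members' quartiles. The median ratio of the highest to the lowest CPM was 1.18 over the members and 1.27 over all tested genes, and 24 members stayed within a ratio of 1.2. The median ratio was not computed over genes of the members' counts, nor was the share of all tested genes within 1.2. These ratios are thus not read as a trait of the members. The biological coefficient of variation is edgeR's estimate of the spread beyond counting error, drawn for each gene toward that of genes of similar level. It is thus not the gene's own spread alone, and was 0.108 even for Ehmt1, the steadiest member. Its median was 0.128 over the members, 0.119 over genes of those counts and 0.164 over all tested genes. Of 65 partner genes tested, 44 varied by the same call. These p-values speak of the spread between the 3 libraries, which the labels call biological replicates of 1 strain-level donor entry.

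The 7 members that did not pass were Kdm5a, Ehmt1, Brd3, Ezh2, Hdac3, Hdac9 and Hdac11. Ehmt1 was the steadiest of the list, with 30.6, 30.2 and 30.4 CPM (adjusted p = 0.938). Kdm5a had 73.5, 76.1 and 74.6 CPM (adjusted p = 0.347), and Ezh2 11.9, 11.8 and 13.2 CPM (adjusted p = 0.118). At this depth a difference between libraries was not detectable for them. Hdac11 had the widest ratio of the list, 2.09, on 15 to 31 counts (adjusted p = 0.06204).

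Dnmt3a varied most among the well-expressed members. It had 293, 242 and 411 CPM, lowest in replicate 2 and highest in replicate 3, a ratio of 1.70, with a biological coefficient of variation of 0.211. Sirt1 had 21.6, 13.5 and 19.6 CPM, a ratio of 1.601, and Tet2 104, 74.7 and 95.2 CPM, both lowest in replicate 2 and highest in replicate 1. Kdm2b had 27.3, 33.8 and 21.9 CPM, a ratio of 1.54 in another order, with replicate 2 highest and replicate 3 lowest. The endothelial receptor gene Kdr had 36.05, 18.6 and 94.2 CPM and the proliferation gene Mki67 234, 87.6 and 157 CPM, both lowest in replicate 2 as Dnmt3a, Sirt1 and Tet2 were. The other 2 endothelial markers had another order, with 0.718, 0.957 and 1.68 CPM for Cdh5 and 2.31, 5.27 and 2.67 CPM for Pecam1. The cell cycle genes Top2a, with 21.7, 23.03 and 21.1 CPM, and Mcm5, with 14.2, 21.4 and 11.5 CPM, were highest in replicate 2, whereas Pcna had 144, 131 and 141 CPM, lowest in replicate 2, and Ccnb1 3.201, 2.89 and 2.71 CPM, lowest in replicate 3. Their part in the members' differences was not tested.

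By CPM, 7, 13 and 20 members had their highest value in replicates 1, 2 and 3, which is 17.5%, 32.5% and 50.0% of them. Over all tested genes the shares were 34.4%, 31.4% and 34.2%. The split depended on the measure: by TPM rescaled to protein-coding genes the counts became 17, 14 and 9, against 46.3%, 29.5% and 24.1% of all genes. CPM and TPM differ both in the library scaling and in the division by transcript length. The highest library was the same by both for 27 of 40 members. Over all genes this agreement was not computed, nor was the share highest in replicate 3 by both. Over tested protein-coding genes the rescaled TPM moved the median by 0.05, 0.00 and -0.06 (log2) relative to CPM, and deposited TPM by 0.12, -0.29 and 0.16. The 9 members highest in replicate 3 by both measures were Dnmt3a, Ehmt2, Smarca4, Arid1a, Kdm4a, Crebbp, Kat2b, Suz12 and Kdm1a. By rescaled TPM the margin was narrow for Suz12, with 30.7, 30.4 and 31.3, and wide for Dnmt3a, with 144, 105 and 229. Among the 9 members Smarca4 had 185, 212 and 229 CPM, Arid1a 171, 189 and 202 CPM and Kat2b 59.6, 65.6 and 79.98 CPM, each lowest in replicate 1. Brd2 had 405, 377 and 459.6 CPM and Chd4 315, 323 and 345 CPM, both highest in replicate 3 by CPM but in replicate 1 by rescaled TPM.

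**Figure D3:**
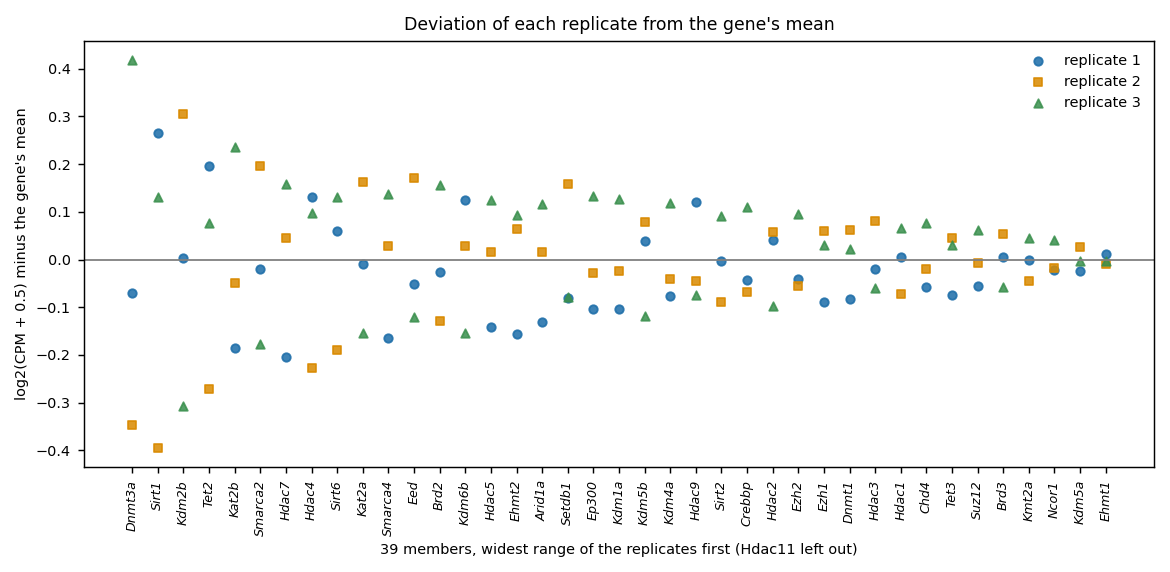
Deviation of log2(CPM + 0.5) in each replicate (1 circles, 2 squares, 3 triangles) from the gene's mean over the 3, for 39 members ordered by their range. Dnmt3a is widest, from -0.35 in replicate 2 to 0.42 in replicate 3, and Ehmt1 narrowest; Hdac11, with at most 31 counts, is left out.

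The members have 423 annotated transcripts between them. The authors deposited transcript levels in 2 tables, made by different methods from the same libraries, one in the column layout of RSEM and one in that of kallisto. Both named the same leading transcript for 33 of 40 members, and the leader was protein-coding for 38 in the RSEM-layout table. The exceptions were Dnmt3a, led by the retained-intron model Dnmt3a-214, and Smarca2, led by Smarca2-215, a model annotated for nonsense-mediated decay (NMD, the destruction of mRNAs with an early stop). Protein-coding transcripts held a median of 94.03% of the members' TPM, and at least 90% in 23 members. The same figures were not computed over all expressed genes, so none of these is read as a trait of the members.

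The variation of Dnmt3a was not even over its transcripts. Dnmt3a-205 begins at an internal start, 3891728 on chromosome 12, the start of the shorter form known as Dnmt3a2. Its TPM was 9.84, 5.56 and 25.3, or 20.5%, 20.3% and 29.8% of the gene's TPM, and 16.7%, 20.1% and 30.1% in the kallisto-layout table. Dnmt3a-201 begins upstream, at 3807030, and had a TPM of 10.2, 7.32 and 9.59, or 21.2%, 26.8% and 11.3%, and 7.03%, 8.38% and 4.54% in the other table. In both tables the internal-start transcript took its largest share in replicate 3 and the upstream Dnmt3a-201 its smallest. Another upstream transcript, Dnmt3a-218, kept 20.5%, 19.2% and 20.6%, so upstream transcripts did not move alike. The retained-intron model Dnmt3a-214, of only 369 bases, held 27.8%, 22.3% and 28.8%. The antisense gene Dnmt3aos overlaps 133 exonic bases of Dnmt3a.

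The stretches just before the upstream and the internal start of Dnmt3a differ in their CpG content, the substrate of the enzyme itself. Both are shown from RefSeq (GRCm38.p6, mm10), 250 bases up to the base before the start, with CG dinucleotides in capitals. They are shown because Dnmt3a-205, from the internal start, and Dnmt3a-201, the first transcript after the upstream start, changed their shares between libraries. The RefSeq internal start lies a few bases inside Dnmt3a-205, so the internal stretch ends with a few transcribed bases of that transcript. A further RefSeq start at 3807160, where Dnmt3a-218 begins, is not shown, since a longer part of the stretch before it is transcribed in Dnmt3a-201.
Upstream start (chr12:3806730-3806979, plus strand): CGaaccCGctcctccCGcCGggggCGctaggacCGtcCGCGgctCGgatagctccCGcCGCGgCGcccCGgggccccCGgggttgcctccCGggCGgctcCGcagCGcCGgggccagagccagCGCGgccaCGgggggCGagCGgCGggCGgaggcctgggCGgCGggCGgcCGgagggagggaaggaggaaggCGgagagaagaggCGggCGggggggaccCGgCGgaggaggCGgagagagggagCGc
Internal start (chr12:3891494-3891743, plus strand): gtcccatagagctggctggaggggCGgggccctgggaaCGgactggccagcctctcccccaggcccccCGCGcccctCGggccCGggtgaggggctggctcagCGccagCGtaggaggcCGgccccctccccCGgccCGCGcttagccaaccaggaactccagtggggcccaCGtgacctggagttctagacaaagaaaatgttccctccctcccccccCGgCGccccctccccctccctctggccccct
The upstream stretch holds 38 CG dinucleotides and 82.4% G and C, and 1.88% of 32851 mouse promoters of this length hold at least as many. The internal one holds 15 and 73.6%, a count that 27.3% of promoters reach, against a median of 6. Neither contains the letters TATAAA on either strand, which 12.4% of these promoters hold.

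Brd2, the highest member, had a steady share of an NMD transcript. Brd2-207 held 19.95%, 23.3% and 22.5% of the gene's TPM, and 18.7%, 23.6% and 24.4% in the kallisto-layout table, while the leading coding transcript Brd2-202 held 53.1%, 53.5% and 48.7%. Brd2-207 contains an exon of 92 bases (chr17:34116598-34116689, minus strand) that Brd2-202 skips, and its reading frame runs through it into an early stop in the next exon. The sequence is shown from the first base of that exon through the stop, in mm10 (chr17:34116317-34116689, minus strand, with the intron between the exons left out) and with the stop codon in capitals.
Brd2-207: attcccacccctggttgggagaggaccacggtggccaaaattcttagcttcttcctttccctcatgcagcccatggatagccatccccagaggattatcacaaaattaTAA
The share of Brd2-207 also rests on its other exons, which reach beyond Brd2-202 at both ends. Brd2-203, a coding transcript that begins farther upstream, took 6.74%, 7.76% and 16.03%, and 5.46%, 7.19% and 14.7% in the other table, highest in replicate 3 in both.

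Sirt1 carried an NMD transcript of the same kind. Sirt1-205 includes an exon of 125 bases (chr10:63326660-63326784, minus strand) that is skipped in Sirt1-201, and whose first 15 bases, shown with the stop codon in capitals (chr10:63326770-63326784, minus strand), end the reading frame.
Sirt1-205: aagaaacagcatTGA
Sirt1-205 held 31.9%, 27.3% and 18.1% of TPM in the RSEM-layout table, but 14.4%, 7.93% and 10.9% in the kallisto-layout table, so the tables differ in its level. Transcripts of the NMD class held 33.7%, 37.02% and 36.6% of Smarca2, the largest such share of the list, and 27.5%, 30.9% and 31.4% in the other table. How many of all expressed genes average at least 10% on this class was not computed. The class averaged at least 10% in 5 members. Besides Brd2, Sirt1 and Smarca2 these were Ehmt2, with 13.2% on average, and Ehmt1, with 10.6%, against 1.47% and 2.36% in the kallisto-layout table.

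**Figure D4:**
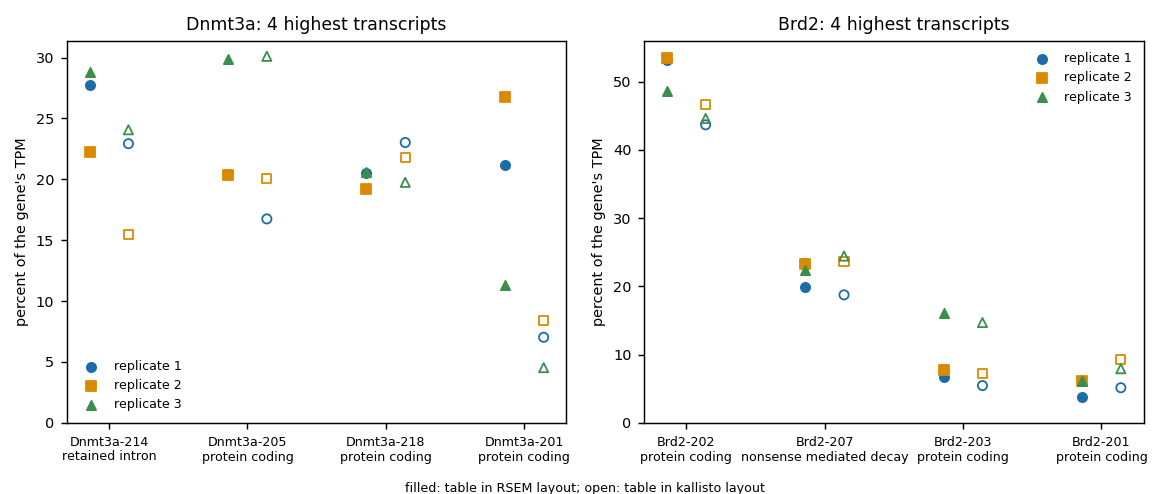
Percent of the gene's TPM on the 4 highest transcripts of Dnmt3a (left) and Brd2 (right) in replicates 1 (circles), 2 (squares) and 3 (triangles), from the RSEM-layout table (filled) and the kallisto-layout table (open). Replicate 3 is the highest point for Dnmt3a-205 and the lowest for Dnmt3a-201 in both tables, and Brd2-207 stays between 18.7% and 24.4%.

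Kat2a showed 2 coding transcripts that differ by 3 bases at 1 splice junction. The junction is shown in both (mm10, minus strand, chr11:100708953-100709105 and chr11:100708956-100709105, introns left out), with the extra bases in capitals.
Kat2a-201: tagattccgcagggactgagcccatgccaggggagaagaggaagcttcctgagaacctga
Kat2a-202: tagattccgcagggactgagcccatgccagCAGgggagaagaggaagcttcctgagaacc
Kat2a-201 held 60.0%, 48.3% and 71.5% of the gene's TPM and Kat2a-202 held 33.3%, 43.7% and 26.7%, and the kallisto-layout table gave 57.7%, 49.9% and 69.5% and 35.8%, 40.99% and 26.6%. Both tables thus put the shorter form ahead in every library and closest to the longer one in replicate 2. Kdm2b stood mostly on a short transcript from an internal start, Kdm2b-201, with 71.9%, 78.1% and 72.3%, and 49.3%, 63.3% and 62.3% in the kallisto-layout table. For Kdm5a the tables disagreed: Kdm5a-201, the full-length coding transcript, held 44.97%, 42.7% and 47.2% in one and 26.4%, 25.8% and 29.5% in the other, where the short noncoding model Kdm5a-207 led. The split between Ezh1-203 and Ezh1-202, whose annotated ends differ by a few bases, was not stable, with 74.6%, 96.7% and 63.02% for Ezh1-203 in one table and 75.5%, 64.2% and 22.8% in the other.

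Transcripts that keep an intron were a sizeable part of several members' RNA, although the fraction is cytosolic, and their share differed between libraries. Among the 30 expressed members with such a transcript above 0, the share of TPM on retained-intron transcripts was highest in replicate 1 for 21 and lowest in replicate 3 for 20, with medians of 7.53%, 5.49% and 2.31%. The kallisto-layout table put 25 of 31 highest in replicate 1, with medians of 12.1%, 5.82% and 2.96%. These counts were near those of other genes: over all expressed genes with such transcripts, replicate 1 was highest for 66.1% in the RSEM-layout table and 75.8% in the kallisto-layout table. In the RSEM-layout table replicate 3 was lowest for 3759 of 5474 such genes. Their medians were 3.35%, 2.05% and 1.13% there, and 5.69%, 3.28% and 1.52% in the kallisto-layout table. Replicate 1 was highest and replicate 3 lowest for 17 of the 30 members and 52.3% of all such genes. Malat1 and Neat1, given above, had the same order of libraries, and their part in it was not tested.

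Replicate 1 was highest and replicate 3 lowest in both tables for 15 members. The share of all genes with that order in both tables was not computed. In the kallisto-layout table alone the order held for 22 of 31 members and 3607 of 5622 genes. Of the 15 members, those with the largest excess of replicate 1 over replicate 3 were Eed, with 37.8%, 25.5% and 14.2%, Tet2, with 30.8%, 21.3% and 7.57%, and Hdac1, with 16.1%, 10.03% and 4.55%. The remodeller Chd4 followed with 11.4%, 4.78% and 1.43%, and Brd2 with 12.7%, 6.301% and 3.32%, where the kallisto-layout table gave 23.03%, 9.72% and 3.84%. The edges of the retained introns that these models report are shown in mm10, 30 coding exon bases in lower case and 30 intron bases in capitals.
Eed-203 (chr7:89972201-89972260, minus strand): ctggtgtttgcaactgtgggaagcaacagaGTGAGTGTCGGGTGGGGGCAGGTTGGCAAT
Tet2-210 (chr3:133480312-133480371, minus strand): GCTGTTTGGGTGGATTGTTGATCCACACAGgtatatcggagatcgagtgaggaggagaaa
Hdac1-206 (chr4:129516870-129516929, minus strand): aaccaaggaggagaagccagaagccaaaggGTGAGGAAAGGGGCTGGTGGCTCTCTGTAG
Chd4-206 (chr6:125114437-125114496, plus strand): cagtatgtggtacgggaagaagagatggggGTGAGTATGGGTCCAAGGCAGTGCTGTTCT
Brd2-215 (chr17:34114449-34114508, minus strand): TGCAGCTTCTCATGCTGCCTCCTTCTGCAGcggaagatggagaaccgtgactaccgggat
Hdac1-206 spans a whole intron of 263 bases within the coding region, and had a TPM of 2.72, 0.8 and 0.56, against 16.7, 12.3 and 18.9 for the spliced Hdac1-201. The other models reach 101 to 341 bases into introns of 411 to 5738 bases. Chd4-206 had a TPM of 3.33, 0.76 and 0 and Eed-203 5.89, 2.59 and 0.83, in each case highest in replicate 1 and lowest in replicate 3. The spliced transcripts had a TPM of 18.6, 13.7 and 22.98 for Chd4-202 and 9.59, 8.65 and 10.3 for Eed-201. Deposited TPM shifts between libraries with the share of short RNAs, so the order of these spliced values is not read as a change. By CPM the whole gene Eed was lowest in replicate 3, with 30.9, 36.1 and 29.4. Chd4 was highest there, with 315, 323 and 345 CPM.

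Other members kept a high retained-intron share without that order. Ep300 had 28.2%, 41.2% and 31.4%, highest in replicate 2, through the short models Ep300-207 and Ep300-208. Ncor1 had 19.4%, 18.7% and 18.98%, level across the libraries, and Dnmt3a 28.2%, 22.8% and 28.96%, lowest in replicate 2. Kdm5b had 19.9%, 20.6% and 21.5% in the RSEM-layout table, yet 21.3%, 10.95% and 6.12% in the kallisto-layout table. When the share was taken from expected counts in place of TPM, the median over the annotated members was 1.21% in place of 4.56%, and TPM gives short models more weight.

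**Figure D5:**
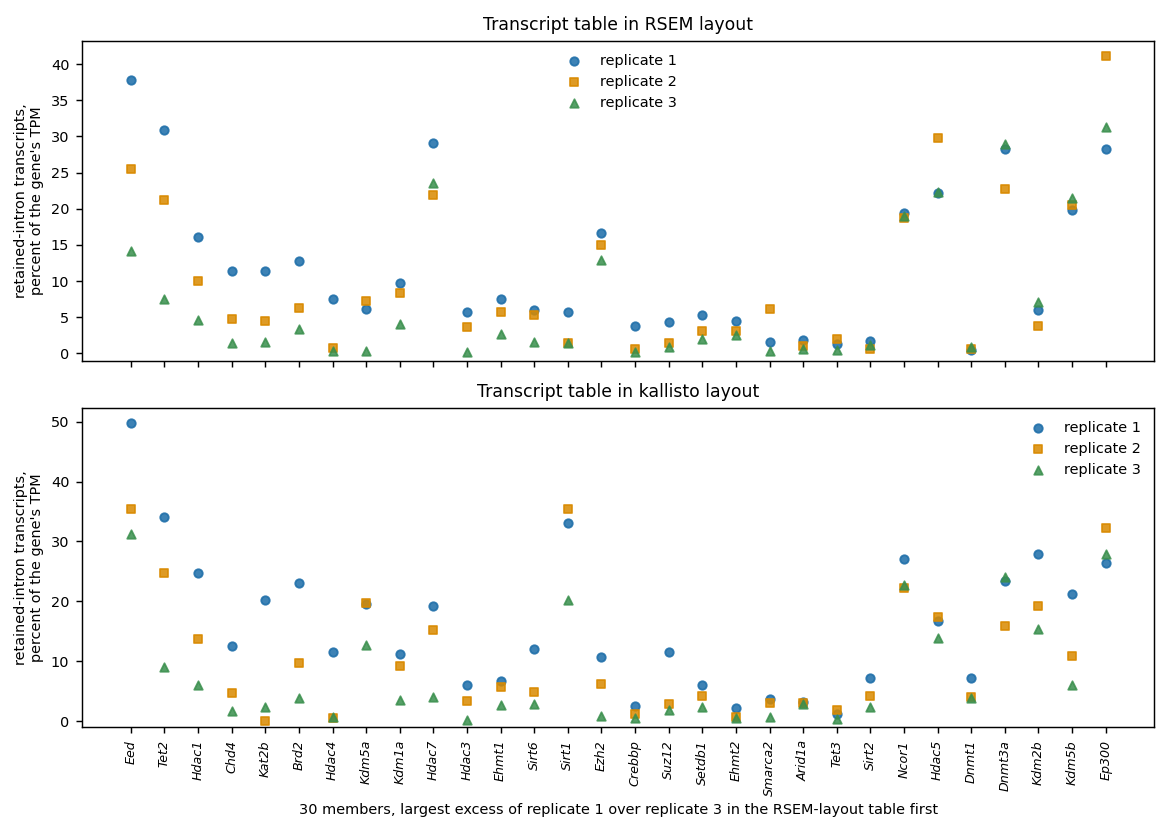
Percent of each gene's TPM on retained-intron transcripts in replicates 1 (circles), 2 (squares) and 3 (triangles), for 30 members in the RSEM-layout table (top) and the kallisto-layout table (bottom), ordered by the excess of replicate 1 over replicate 3 in the first. Circles lie highest for 21 members in the top panel, as for 66.1% of all such genes, and Ep300, Hdac5 and Dnmt3a are among the exceptions.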

How the data were processed

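Total RNA of the cytosolic fraction was sequenced in 3 libraries of 1 condition, grouped by the labels. The authors deposited, per library, a gene table and 2 transcript tables. Their expected counts are estimated reads that need not be whole and were deposited without normalisation; TPM was deposited by the authors over every indexed feature, short RNAs included. The kallisto-layout estimated counts and TPM were deposited likewise. Per the labels the assembly was mm10, and the deposited notes name GENCODE M21; the sources used here name no aligner, quantifier or strandedness. Symbols, classes and coordinates came from GENCODE M21, sequences from its transcripts and from RefSeq promoters, which held 36 of 40 members.

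Entries that name no Ensembl gene, 0.0251% to 0.0785% of expected counts, stayed out of library sizes and tests. CPM used TMM factors (edgeR 4.0.16 in R 4.3.3); alternatives used DESeq2 1.42.0 size factors. For the Poisson heterogeneity test, expected counts were made whole by rounding and compared for every gene averaging at least 10 counts (2 degrees of freedom, scipy 1.17.1), a step tested on simulated data. Pairs used log2(TPM + 1), which understates differences of low genes. With 1 condition, no group contrast was fitted. Depth and its floor stand in the report.

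The members, their partner genes and pairs were chosen with earlier results of these data known. All members are named; partner genes are named where they form a pair or are the highest or lowest of their family, and some of them are not reported here. Marker genes, Malat1, Neat1 and antisense neighbours were named after their values were seen. The closing section gives the effect of other scales, filters, tables and left-out libraries.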

Additional observations from a re-analysis of the deposited data

How the results depend on the processing

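No paired analysis was possible because all libraries belong to 1 group. Counts of expressed members, of pairs with 1 sign in every library, and of members varying beyond counting error stayed within 1.5 times of the reported count under every alternative run, with 33 varying members as reported and 24 to 28 when 1 library was left out, against 49.8% to 53.8% of all genes. The members' median TPM was 30.8 when rescaled to protein-coding genes, 4.34 in the kallisto-layout table, and 32.5 with both, the last chosen after seeing the data; it ranged from 9.41 to 10.8 without 1 library. By rescaled TPM 17 members were highest in replicate 1 and 9 in replicate 3, and by deposited TPM 17 in replicate 1 and 0 in replicate 2, where 44.4% and 3.93% of all genes were; the cause was not tested. With counts of protein-coding transcripts only, chosen after seeing the data, replicates 1, 2 and 3 were highest for 5, 14 and 21 members and 27.2%, 34.2% and 38.5% of all genes. The median retained-intron share was 1.21% from expected counts, chosen after seeing the data, and 3.198% to 5.597% without 1 library. The median share of the leading transcript was 60.99%, but 53.7% in the kallisto-layout table. A TPM of at least 5 kept 39 of 59 expressed partner genes. Kdm6b minus Kdm6a averaged 0.21 ± 0.29 (log2) with counts per length of the longest coding transcript, chosen after seeing the data, against -0.48. Its sign then differed between libraries. The other pairs kept their direction wherever it had been the same in every library. Hdac11 had the lowest depth of the members, at 15 to 31 counts.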
